A study of Mus musculus with 10 samples.

Results

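A group of 10 genes that endothelial cells use to bind leukocytes and to hold on to each other was followed in mouse heart ventricles after sham surgery. They were taken by symbol from the count table, and all 10 were found, each as a single Ensembl gene, among the 40690 genes of the table. Of these, 5 are called activation genes here (Selp, Sele, Vcam1, Icam1 and Vwf) and 5 identity genes (Cdh5, Pecam1, Tie1, Tek and Icam2). The 5 sham mice had undergone the surgical control procedure used in studies of a blocked and reopened coronary artery, and the 5 naive mice had no operation. Both groups were male C57BL/6 mice of 10 weeks, with no allele or agent named in the labels. Ventricular poly(A) RNA was sequenced from each sample as a separate library. How long after surgery the hearts were taken is not stated in the labels. The question is whether the control operation itself changes endothelial transcripts of the ventricle.

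Endothelial cells line every vessel of the heart. At rest they are held together by cadherin and immunoglobulin-family junction proteins and kept quiet by angiopoietin signalling through the Tie receptors. When they are activated by inflammatory cytokines or thrombin, they expose selectins, which make passing leukocytes roll, and then Vcam1 and Icam1, which bind leukocyte integrins and make them stop. Weibel-Palade bodies, the storage granules of endothelium, hold von Willebrand factor and P-selectin ready for release, so RNA and surface protein of these genes need not move together.

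The start regions of the selectins, of Icam1 and of the receptor Tek are shown because 2 of them, Selp and Icam1, are among the genes that rose, and Tek is the identity gene with the lowest fold change. RefSeq promoter windows on GRCm38.p6 were at hand for 5 of the 10 genes, and Tie1 is not shown. Each line gives the 150 bases before the start that RefSeq annotates, 5′ to 3′ on the strand of the gene. Capitals mark matches to TGANTCA (an AP-1 type element), TTCNNNGAA (a STAT type element) or TATAAA, and lower case marks the rest.
Selp: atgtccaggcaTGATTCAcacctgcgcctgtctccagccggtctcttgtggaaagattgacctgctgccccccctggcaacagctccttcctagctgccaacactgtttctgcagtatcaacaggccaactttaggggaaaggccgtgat
Icam1: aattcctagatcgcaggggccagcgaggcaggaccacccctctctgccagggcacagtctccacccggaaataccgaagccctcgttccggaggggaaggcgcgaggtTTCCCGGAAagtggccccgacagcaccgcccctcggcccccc
Sele: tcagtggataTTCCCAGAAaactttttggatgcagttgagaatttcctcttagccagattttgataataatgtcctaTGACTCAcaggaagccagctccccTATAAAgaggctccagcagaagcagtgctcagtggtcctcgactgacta
Tek: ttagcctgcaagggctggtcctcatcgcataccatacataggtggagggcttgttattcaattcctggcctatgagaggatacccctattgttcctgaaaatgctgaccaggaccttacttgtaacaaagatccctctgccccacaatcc
The windows are chr1:164115114-164115263 for Selp, chr9:21015790-21015939 for Icam1, chr1:164048084-164048233 for Sele and chr4:94739139-94739288 for Tek, all on the plus strand. Counting back from -1 at the base before the start, Selp held TGATTCA from -139 to -133. Sele held TTCCCAGAA from -140 to -132, TGACTCA from -73 to -67 and TATAAA from -49 to -44. Icam1 held TTCCCGGAA from -42 to -34, and Tek held none of the 3. Both strands were searched, and over 32851 windows of the same length TGANTCA was found in 4.24%, TTCNNNGAA in 4.09% and TATAAA in 7.57%. The κB consensus, the site type bound by NF-κB, was found in 4.60% of all windows and in 0 of these 4. That says only that the strict letters are not in this window. The TTCNNNGAA and GGAA letters overlap in Icam1, which held 6 copies of GGAA, the core of ETS factor sites, a motif present in 80.8% of all windows.

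Libraries held 10654107 to 21537135 counts in sham and 9683181 to 17577906 counts in naive ventricles, and 3 counts stood at 0.139 to 0.310 CPM (reads of a gene per 1000000 counted reads), depending on the library. Levels below are CPM scaled with TMM factors, which correct library totals for differences in RNA makeup. Heart muscle transcripts marked the tissue in all libraries, with Myh6, the main cardiac myosin heavy chain, at 30509 CPM in sham and 38652 CPM in naive ventricles. In tissue RNA, fewer cells of a type and less RNA per cell cannot be told apart. The labels call the samples separate and say nothing of cages or days, so a p-value reflects only how these 10 libraries vary.

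Sham ventricles held more RNA of 4 of the 5 activation genes than naive ventricles, while the identity genes had log2 fold changes between -0.37 and 0.12. Selp was 8.71-fold higher, Vcam1 2.30-fold, Icam1 1.603-fold and Vwf 1.26-fold. Selp entered the test through the sham libraries alone, with 4 to 9 reads in each naive library. Sele had a fold of 1.52 and did not pass the test. Of the 5 activation genes 4 rose and 0 fell, whereas of the 5 identity genes 0 rose and 2 fell, Cdh5 and Tek, at adjusted p-values just under the threshold of 0.05. Over all 13622 genes tested, 17.2% were called higher and 15.5% lower, 32.7% in either direction (quasi-likelihood F test of edgeR, with Benjamini-Hochberg adjustment). The median log2 fold change, sham over naive, was 0.68 over the activation genes and -0.21 over the identity genes, beside -0.05 over all tested genes.

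**Figure D1:**
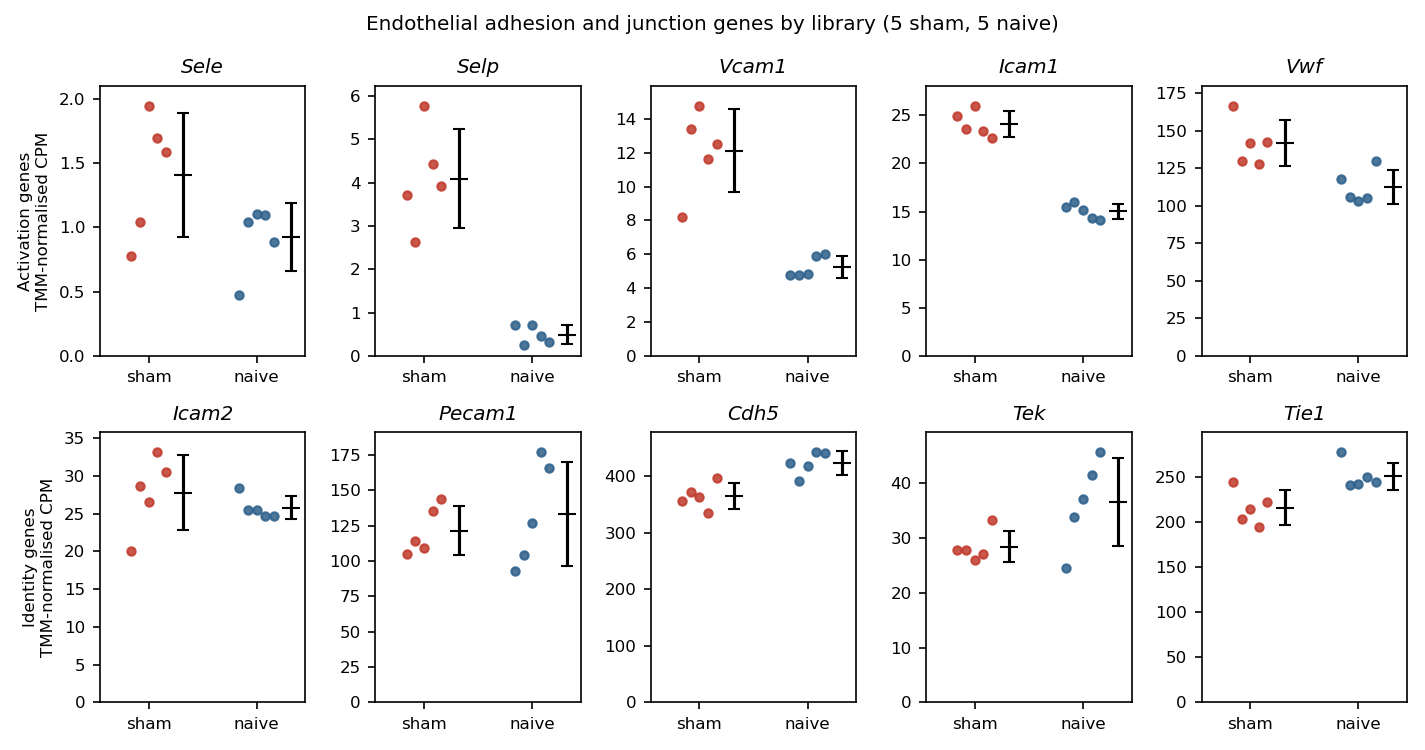
TMM-normalised CPM of the 10 genes in each library, sham left of naive, with the activation genes in the upper row and the identity genes in the lower row. Points are libraries in replicate order and bars are mean ± SD (n = 5). All 5 sham libraries lie above all 5 naive libraries for Selp, Vcam1 and Icam1, and the groups overlap for the other 7 genes.

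P-selectin is the rolling receptor that endothelium and platelets store in granules, and its gene Selp (chromosome 1, 164115264 to 164150026 on the plus strand, 16 exons in its longest transcript) had the highest fold change of the 10. Selp stood at 3.72, 2.64, 5.77, 4.42 and 3.91 CPM in sham 1 to 5, against 0.714, 0.246, 0.711, 0.470 and 0.316 CPM in naive 1 to 5. Every sham library lay above every naive library, and the lowest sham value was more than 3 times the highest naive value. On the log2 scale sham exceeded naive by 3.12 ± 0.31 (SE, 95% interval 2.47 to 3.78, adjusted p = 1.27e-06), larger than in 99.6% of tested genes. Naive libraries held 4 to 9 reads of Selp each and sham libraries 38 to 99. The cutoff used to choose genes for testing was 0.703 CPM by library totals alone, without TMM factors. On that scale no naive library reached it for Selp, so Selp entered the test through the sham libraries, where it is high. Of its exon bases, 14.1% are shared with genes on the other strand, Gm16587 and Gm16548, which held 3 and 0 reads over all sham libraries and 0 and 0 over all naive libraries.

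E-selectin, the other endothelial selectin, is made only on activation in most vessels, and its gene Sele (chromosome 1, 164048234 to 164057677, plus strand, 14 exons) lies on the same chromosome as Selp. It was the scarcest of the 10 genes per length in sham ventricles. Sele stood at 0.779, 1.04, 1.95, 1.70 and 1.59 CPM in sham 1 to 5, against 0.476, 1.05, 1.11, 1.10 and 0.884 CPM in naive 1 to 5. Sham 3, 4 and 5 lay above all naive libraries, and sham 1 and 2 lay within the naive range. Its log2 fold change of 0.60 ± 0.30 did not pass (95% interval -0.03 to 1.24, adjusted p = 0.137), an interval that runs from 0.979-fold to 2.36-fold. The gene had 130 reads over the sham group and 63 over the naive group, which limits the precision.

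Vcam1 makes the receptor for the leukocyte integrin of alpha chain Itga4, and fibroblasts, mural cells and macrophages can express it as well as endothelium. Vcam1 (chromosome 3, 116109949 to 116129688, minus strand, 9 exons) stood at 8.23, 13.4, 14.8, 11.7 and 12.5 CPM in sham 1 to 5, against 4.76, 4.80, 4.82, 5.88 and 6.00 CPM in naive 1 to 5. The groups did not overlap, and sham 1 was the lowest of its group. Vcam1 differed by 1.203 ± 0.155 on the log2 scale (SE, adjusted p = 2.10e-05).

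Icam1 makes the ligand of the beta 2 integrins, on endothelium and on many leukocytes. Icam1 (chromosome 9, 21015985 to 21028817, plus strand, 7 exons) stood at 24.9, 23.5, 26.0, 23.3 and 22.7 CPM in sham 1 to 5, against 15.5, 16, 15.2, 14.4 and 14.1 CPM in naive 1 to 5. It was the steadiest of the activation genes, with a coefficient of variation of 5.53% among sham and 5.28% among naive libraries, and its groups were well separated. Icam1 differed by 0.68 ± 0.09 on the log2 scale (SE, adjusted p = 2.11e-05). An annotated gene on the other strand, Gm47079, covers 11.7% of its exon bases, and reads from that stretch cannot be assigned to a strand. Gm47079 is not among the deposited genes, so it has no count of its own here. Over all tested genes, 13.6% had every sham library above every naive library, as Selp, Vcam1 and Icam1 did, and 9.18% had every sham library below every naive library, as 0 of the 10 genes did.

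Von Willebrand factor carries platelets to injured vessel walls, and Vwf (chromosome 6, 125546774 to 125686679, plus strand, 52 exons) was the activation gene with the highest level per length. Vwf stood at 166, 129.8, 142, 128 and 142 CPM in sham 1 to 5, against 118, 106, 103, 105 and 130.0 CPM in naive 1 to 5. Sham 1, 3 and 5 lay above all naive libraries, while naive 5 lay just above sham 2 and 4, so the groups overlapped. Its log2 fold change was 0.33 ± 0.09 (SE, adjusted p = 0.0130), and all 5 sham libraries exceeded the naive mean. It remained past the threshold with each of the 10 libraries left out in turn, at adjusted p-values of 0.00346 to 0.0439.

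VE-cadherin, encoded by Cdh5, forms the adherens junctions of endothelium and is among its most specific markers. Cdh5 (chromosome 8, 104101625 to 104144511, plus strand, 12 exons) stood at 355, 373, 363, 335 and 396 CPM in sham 1 to 5, against 424, 391, 417, 442 and 441 CPM in naive 1 to 5. Sham 1 to 4 lay below every naive library, and sham 5 lay just above naive 2. Cdh5 differed by -0.21 ± 0.08 on the log2 scale (SE, adjusted p = 0.0434), a level 0.862 times the naive level. This call was lost without any single sham library and without naive 3, 4 or 5, at adjusted p-values of 0.0627 to 0.122. The direction turned when library totals alone were used for scaling, to 0.05.

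The Tie receptors Tek and Tie1 are tyrosine kinases of the vessel wall, and Tek binds the angiopoietins. Tek (chromosome 4, 94739289 to 94874976, plus strand, 23 exons) stood at 27.8, 27.9, 26.1, 27.1 and 33.3 CPM in sham 1 to 5, against 24.6, 33.8, 37.1, 41.6 and 45.7 CPM in naive 1 to 5. Naive 1 lay below all sham libraries, and the naive libraries spread more widely than the sham ones, with coefficients of variation of 9.90% in sham and 21.95% in naive ventricles. Tek differed by -0.37 ± 0.13 on the log2 scale (SE, adjusted p = 0.0482). It did not pass without sham 1, 2, 3 or 4 or naive 2, 3, 4 or 5 (adjusted p of 0.0561 to 0.130), and without naive 1 the adjusted p was 0.00266.

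Tie1 (chromosome 4, 118471191 to 118490061, minus strand, 23 exons), the orphan partner of Tek, stood at 245, 203, 214, 194 and 223 CPM in sham 1 to 5, against 277, 241, 242, 250.2 and 244.5 CPM in naive 1 to 5. Sham 2 to 5 lay below all naive libraries and sham 1 lay inside the naive range. Its difference of -0.22 ± 0.08 on the log2 scale (SE) did not pass (adjusted p = 0.0562). It passed without sham 1 (adjusted p = 0.0207), with the replicate number as a block (0.0161), with a GC offset (0.0078, or 0.00272 with the block), with DESeq2 (0.0391) and with limma voom (0.0184). Like Cdh5, it turned to 0.05 with library size alone.

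Pecam1, a junctional adhesion protein of endothelium that platelets and leukocytes carry too, differed more within groups than between them. Pecam1 (chromosome 11, 106654217 to 106750628, minus strand, 16 exons) stood at 105, 114, 109, 135 and 144 CPM in sham 1 to 5, against 92.8, 104, 127, 177 and 166 CPM in naive 1 to 5. The highest and the lowest value of all 10 libraries were both naive. Its log2 fold change was -0.13 ± 0.16 (95% interval -0.48 to 0.21, adjusted p = 0.569), and it turned to 0.13 with library size alone.

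Icam2, the constitutive endothelial relative of Icam1, was the identity gene with a positive fold change. Icam2 (chromosome 11, 106377656 to 106388075, minus strand, 4 exons) stood at 20.1, 28.7, 26.6, 33.1 and 30.5 CPM in sham 1 to 5, against 28.4, 25.5, 25.5, 24.8 and 24.7 CPM in naive 1 to 5. Sham 1 was the lowest of all 10 libraries and sham 2, 4 and 5 were the highest. Icam2 differed by 0.12 ± 0.12 on the log2 scale (95% interval -0.13 to 0.36, adjusted p = 0.479). With library size alone it was called higher, at 0.38 (adjusted p = 0.0189).

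**Figure D2:**
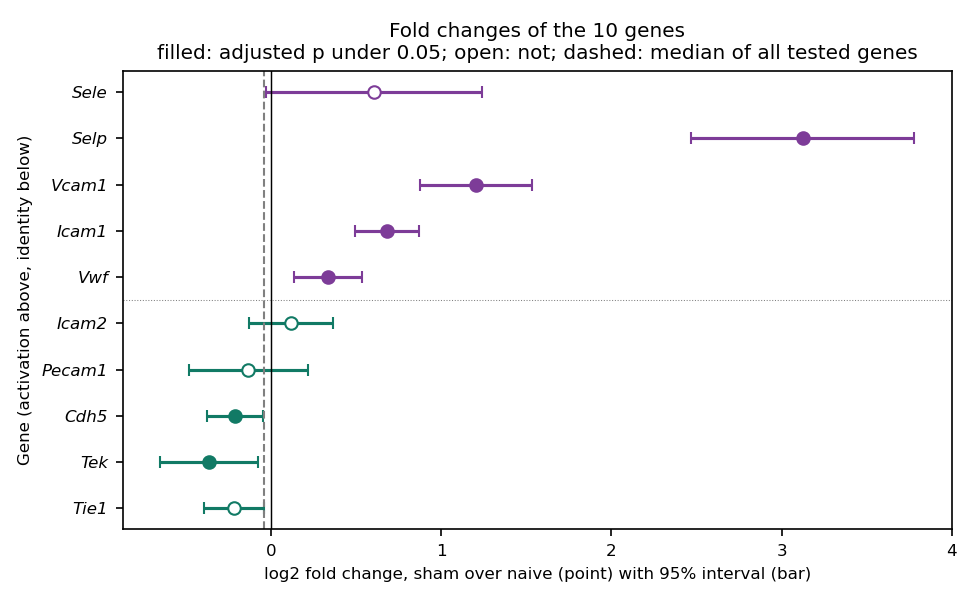
Log2 fold change, sham over naive, of each gene with its 95% interval; filled points passed an adjusted p of 0.05. The intervals of Selp, Vcam1, Icam1 and Vwf lie above 0, those of Cdh5, Tek and Tie1 below it, and those of Sele, Icam2 and Pecam1 span it; Tie1 did not pass after adjustment.

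The fold changes of Pecam1, Cdh5 and Tie1 changed direction with library size alone, while those of Tek and Icam2 kept theirs. When only library totals were used, the median over all tested genes shifted by 0.26 on the log2 scale, and 94.05% of all calls were higher, where 52.57% were with TMM factors. Cdh5 lay -0.17 from the median with TMM factors and -0.16 from it with library size alone. Vwf lay 0.38 from it under both. A change of scaling shifts all genes by nearly the same amount, so these distances could hardly move and do not test it. A ratio of 2 genes within a library does not depend on scaling at all. Against Pecam1 in the same library, the Selp ratio was 3.13 higher on the log2 scale in sham, the Vcam1 ratio 1.28 higher and the Icam1 ratio 0.78 higher. These 3 of 9 ratios passed an exact two-sided permutation test over libraries, with adjusted p of 0.0357, 0.0357 and 0.0476. The smallest raw p that 5 against 5 libraries allow is 0.00794. The Selp ratio rests on 4 to 9 reads in each naive library, and Selp reached the cutoff for testing in sham libraries only. The Sele ratio differed by 0.66 (exact permutation p = 0.0476, adjusted p = 0.1), with all 5 sham libraries above the naive mean.

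The Vwf ratio to Pecam1 differed by 0.43 and did not pass (exact permutation p = 0.0952, adjusted p = 0.143), with 2 of 5 sham libraries above the naive range. Pecam1 itself varied among naive libraries, so Cdh5 was used as a second denominator. Cdh5 was itself called lower in sham, which adds to every ratio to it. Against Cdh5, no sham library overlapped the naive range, and every one was higher, for Selp, Vcam1, Icam1 and Vwf (each adjusted p = 0.0179, exact permutation test). The limit of few naive reads holds for Selp here too. The log2 ratio of Vwf to Cdh5 averaged -1.37 ± 0.17 in sham and -1.92 ± 0.12 in naive ventricles (SD, n = 5). The ratio of Tie1 to Cdh5 averaged -0.76 ± 0.13 in sham and -0.75 ± 0.10 in naive ventricles, and the difference of -0.005 did not pass (exact permutation p = 0.952). The ratios of Icam2 and Sele to Cdh5 differed by 0.31 and 0.78 and did not pass (adjusted p = 0.0833 for each, exact permutation test).

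**Figure D3:**
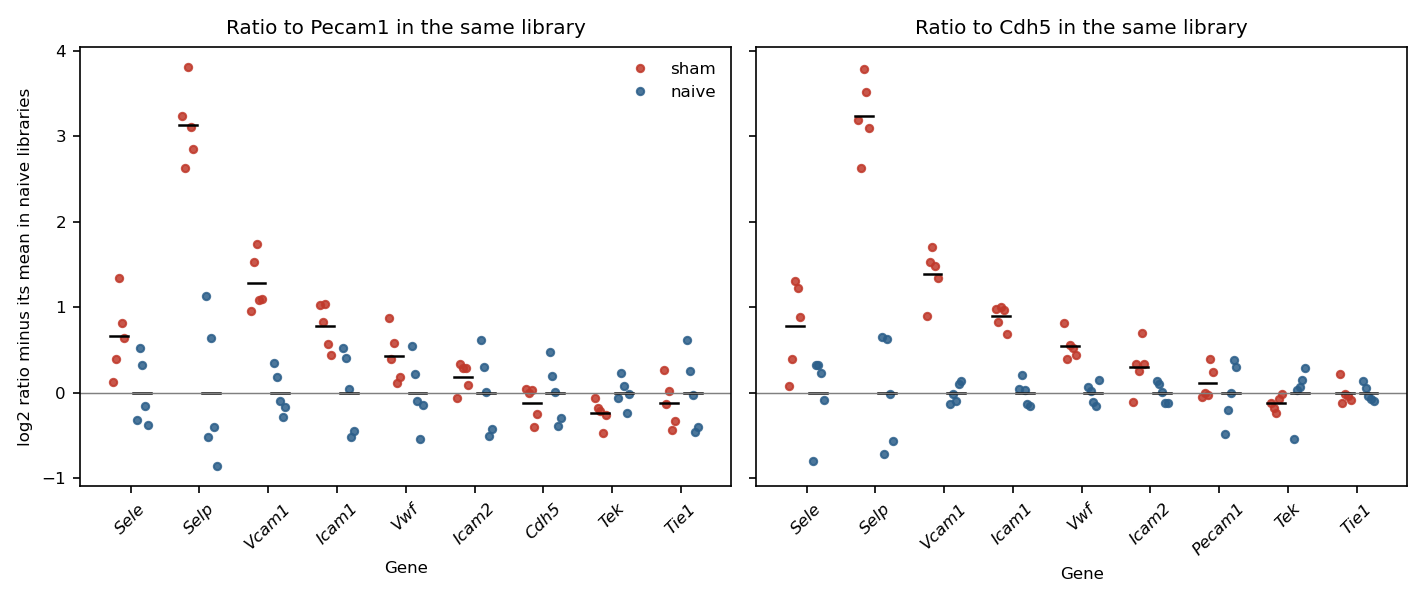
Log2 ratio of each gene to Pecam1 (left) and to Cdh5 (right) in the same library, minus its mean over naive libraries; points are libraries, sham left of naive, and short bars are group means. The sham means of Selp lie 3.13 and 3.24 above naive, and the naive points spread less around the Cdh5 ratio than around the Pecam1 ratio for Vcam1, Icam1 and Vwf.

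The mean log2 CPM of the 5 activation genes minus that of the 5 identity genes was -3.11, -3.17, -2.64, -2.97 and -3.12 in sham 1 to 5, against -4.20, -4.35, -4.17, -4.38 and -4.49 in naive 1 to 5. The groups did not overlap on this measure, which is a description without a test because its genes were chosen. Its means differed by 1.31, made up of an activation mean 1.16 higher in sham and an identity mean that differed by -0.16, which the measure subtracts. The 5 activation genes count equally, and Selp, at a log2 fold change of 3.12, had the largest part in the 1.16. The other activation genes ran from 0.33 for Vwf to 1.203 for Vcam1. Selp rests on 4 to 9 reads in each naive library, and the measure was not computed without it.

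Per kilobase of merged exons, Cdh5 was the most abundant of the 10 transcripts in both groups, at 86.7 ± 5.37 CPM per kilobase in sham and 101 ± 4.94 in naive ventricles (SD, n = 5). In sham ventricles Tie1, Pecam1, Icam2, Vwf, Tek, Icam1, Vcam1, Selp and Sele followed, with Sele at 0.484 ± 0.166 CPM per kilobase. Within that order Pecam1 and Icam2, Tek and Icam1, Vcam1 and Selp, and Selp and Sele had overlapping ranges. In naive ventricles Tie1, Pecam1, Icam2, Tek, Vwf, Icam1, Vcam1, Sele and Selp followed, and the ranges of Pecam1 and Icam2 and of Tek and Vwf overlapped. Selp was therefore the scarcest in naive ventricles, at 0.111 ± 0.0493 CPM per kilobase, and stood at 0.927 ± 0.258 in sham ventricles, where it exceeded Sele in all 5 libraries.

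Within the groups the 10 genes varied in different ways. Pearson's r of log2 CPM deviations from the group means, over 10 libraries that differ in depth, was 0.87 between Pecam1 and Tek, 0.48 between Pecam1 and Cdh5 and -0.55 between Icam2 and Tie1. The median over the 10 pairs of identity genes was 0.06, and that over the 10 pairs of activation genes was -0.03. Pecam1 with Tek was the highest pair of identity genes, and Icam2 with Tie1 the lowest. Over the 25 pairs of an activation gene with an identity gene the median was 0.08. The lowest of these was Icam1 with Pecam1, which deviated in opposite directions, with r of -0.83. These values are descriptions without a test.

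Other endothelial genes, listed with earlier results of these data known, went both ways, as tested genes at large did. Of 29 pan-endothelial genes 3 rose and 6 fell, and 20 missed the threshold (median log2 fold change -0.09). With library size alone 8 rose and 0 fell, and the median turned to 0.17. Over all tested genes 17.2% were higher and 15.5% lower, or 4473 higher and 283 lower of 13622 with library size alone. The counts of every list below stand beside these shares. Kdr, the main VEGF receptor, averaged 163 ± 13.1 CPM in sham and 238 ± 36.7 in naive ventricles, and fell by 0.55 on the log2 scale (adjusted p = 0.000814). The water channel Aqp1 changed by -0.52 and the tight junction claudin Cldn5 by -0.52. With library size alone all of these lower calls were lost. The surface sialomucin Cd34, the arterial transcription factor Sox17 and Ecscr, a chemotaxis regulator of endothelium, rose by 0.36, 0.39 and 0.69, and the call of Sox17 was lost without sham 1, naive 3 or naive 4.

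Genes of vein, artery and endocardium went both ways. Of 13 tested, 3 rose and 2 fell, and 8 missed the threshold (median 0.06), whereas with library size alone 7 rose and 0 fell (median 0.33). The number higher was 5 without naive 1 or sham 2. Plvap, which builds the diaphragms of endothelial fenestrae and caveolae, averaged 111 ± 15.1 CPM in sham and 23.1 ± 5.61 CPM in naive ventricles, and differed by 2.28 ± 0.14 on the log2 scale (SE, adjusted p = 1.28e-08). Lrg1, a secreted glycoprotein of activated vessels, rose by 0.63, and the matrix proteoglycan Vcan, which fibroblasts also make, by 1.57. Dll4, the Notch ligand of arterial and capillary endothelium, and Npr3, an endocardial natriuretic peptide receptor, fell by 0.46 and 0.44, calls that were lost with library size alone. Without any 1 of sham 2, 3, 4 or 5 or naive 2, 3, 4 or 5 only 1 of this list was lower, the call of Npr3 being lost. Ackr1, the chemokine receptor of venules, was too low to be tested. It had 142 reads over the sham group and 18 over the naive group.

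Angiopoietin and Tie signalling had 11 tested genes, of which 3 rose, 4 fell and 4 missed the threshold (median -0.01, or 0.26 with library size alone). Angpt2, the Weibel-Palade angiopoietin that opposes Angpt1, averaged 7.39 ± 2.23 CPM in sham and 3.47 ± 1.14 CPM in naive ventricles, and rose by 1.10 ± 0.24 on the log2 scale (SE, adjusted p = 0.00220). Dok2, an adaptor that binds Tek and is also made by leukocytes, rose by 1.06, and Svep1, a matrix ligand of Tie1, by 0.36. The adaptor Grb14 fell by 0.58 and the phosphatase Ptpn11 by 0.39, both also made in heart muscle. With library size alone 6 rose and 1 fell, and 2 fell without sham 2, sham 4 or naive 5.

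Junction genes beyond the 10 were lower more often than higher: of 22 tested 1 rose, 11 fell and 10 missed the threshold (median -0.23), but with library size alone 6 rose and 0 fell (median 0.04). Jup, or plakoglobin, which heart muscle desmosomes hold as well, averaged 648 ± 14.2 CPM in sham and 815 ± 59.0 CPM in naive ventricles. The junctional adhesion molecule Jam2 changed by -0.46 and the scaffold Afdn by -0.40. The small GTPase Rap1b rose by 0.38, a call that was lost without sham 1 or 3. The number lower was 4 without sham 2, 7 without sham 3, 6 without sham 4, 5 without sham 5 and 7 without naive 2, 3 or 4. Heart muscle markers moved beside them: 10 of 12 fell and 0 rose (median -0.39), or 2 fell and 0 rose with library size alone (median -0.13), with a summed level of 72900 to 87900 CPM in sham and 98970 to 105700 CPM in naive ventricles, and Ckm at -0.50. Their part in the junction result was not tested.

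Most, but not all, leukocyte partners of the adhesion genes rose. Of 16 tested counter-receptors and the enzymes that decorate them 9 rose and 1 fell, and 6 missed the threshold (median 1.40), while with library size alone 12 rose and 0 fell. Selplg, the ligand of P-selectin on leukocytes, averaged 48.4 ± 3.34 CPM in sham and 11.6 ± 2.72 CPM in naive ventricles, and differed by 2.08 ± 0.13 on the log2 scale (SE, adjusted p = 1.61e-08). The beta 2 integrin chain Itgb2 rose by 2.33, its partner Itgam by 2.82 and Cd44, which binds E-selectin and hyaluronan, by 2.22. Of the exon bases of Itgam, 68.67% are shared with Gm49368 on the same strand. Itgam is counted among the leukocyte markers as well. Itgal and Itga4, named after their values were seen because they bind Icam1 and Vcam1, rose by 1.49 and 1.85. The sialyltransferase St3gal6 fell by 0.41, a call lost with library size alone.

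The markers of other cells that can express these genes moved too. All 11 tested leukocyte markers rose, with a summed level of 669.9 to 862 CPM in sham and 209.7 to 267.7 CPM in naive ventricles (median 1.96); Laptm5 rose by 1.87, Cd68 by 1.81, Tyrobp by 2.06 and Csf1r by 1.09. Of the neutrophil genes, Csf3r rose by 2.77 (1444 reads over the sham group and 163 over the naive group) and S100a9 by 2.07 (124 and 23 reads), a call lost without sham 2, 3 or 5 or naive 1, 2, 3 or 4. The neutrophil marker S100a8 and the lymphocyte markers Cd3e and Cd79a were too low to be tested. Fibroblast markers rose in 8 of 11 cases (median 0.70), led by Col1a1 at 3.84 and Col3a1 at 3.64, and their summed level was 13510 to 23070 CPM in sham and 3126 to 3988 CPM in naive ventricles. Col1a1 and Col3a1 carried most of that sum's difference: the other 9 genes summed to 2402 to 2725 CPM in sham and 2089 to 2511 CPM in naive ventricles. The part of these cells in the rise of Icam1, Vcam1 and Selp was not tested.

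Platelets carry P-selectin and von Willebrand factor too. Of 12 platelet genes 5 were tested, of which 2 rose (4 without naive 1), 1 fell and 2 missed the threshold (median 0.57), where library size alone gave 4 higher and 0 lower. Their summed level was 43.6 to 53.2 CPM in sham and 18.7 to 28.6 CPM in naive ventricles. Most of that sum came from Pf4, which macrophages also make, at 25.2 CPM in sham and 9.78 CPM in naive ventricles, and from the integrin chain Itgb3, found on many cells, at 11.3 CPM in sham and 2.64 CPM in naive ventricles. Itga2b, the platelet integrin chain, stood at 5.84 CPM in sham and 4.10 CPM in naive ventricles (log2 fold change 0.54, adjusted p = 0.0993), and Gp1bb had 163 reads over the sham group and 77 over the naive group (0.57, adjusted p = 0.151). Of the exon bases of Gp1bb, 92.86% are shared with Gm49601 and Sept5 on the same strand, which limits what its count can show. The 7 untested platelet genes had 21 reads or fewer in either group. Among them Gp9 had 14 reads over the sham group and 14 over the naive group, Ppbp 20 and 16, Treml1 15 and 19, Tubb1 14 and 18, Clec1b 21 and 13 and Gp6 2 and 1. Gp1ba was called lower at -0.57, and that call was lost with library size alone, without sham 2, 3, 4 or 5 and without naive 1, 2 or 5.

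Genes of NF-κB signalling, the pathway that drives the adhesion genes in cultured endothelium, were called higher 10 times out of 21 and lower 1 time (median 0.25). The other 10 missed the threshold. Over all tested genes 17.2% were higher and 15.5% lower. With library size alone 15 of the list were higher and 0 lower (median 0.52), beside 4473 higher and 283 lower of 13622 genes. The receptors Tnfrsf1b, Tnfrsf1a and Il1r1 rose by 1.37, 0.87 and 1.46, and the kinase Ikbke by 2.32. They are named because they had the smallest p-values of the list. Tnfaip2, a TNF-induced gene of endothelium, fell by 0.27, a call that was lost with library size alone and without sham 2, sham 5, naive 2 or naive 3. Tnf was at 4.10 ± 4.10 CPM in sham and 1.80 ± 1.53 CPM in naive ventricles (SD, n = 5) and did not pass (adjusted p = 0.198).

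Genes of haemostasis and granule storage rose 9 times out of 17 and fell 2 times (median 0.24), and with library size alone 12 rose and 0 fell (median 0.51). Thbs1, a matrix protein of platelets and activated stroma, rose by 2.75, the plasminogen activator Plat by 0.82 and Cd63, a membrane protein of Weibel-Palade bodies and lysosomes, by 0.82. F3, or tissue factor, fell by 0.43, and this and the lower call of Gp1ba were lost with library size alone; without any 1 of sham 2 to 5 or naive 1, 2 or 5 only 1 of the list was lower.

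**Figure D4:**
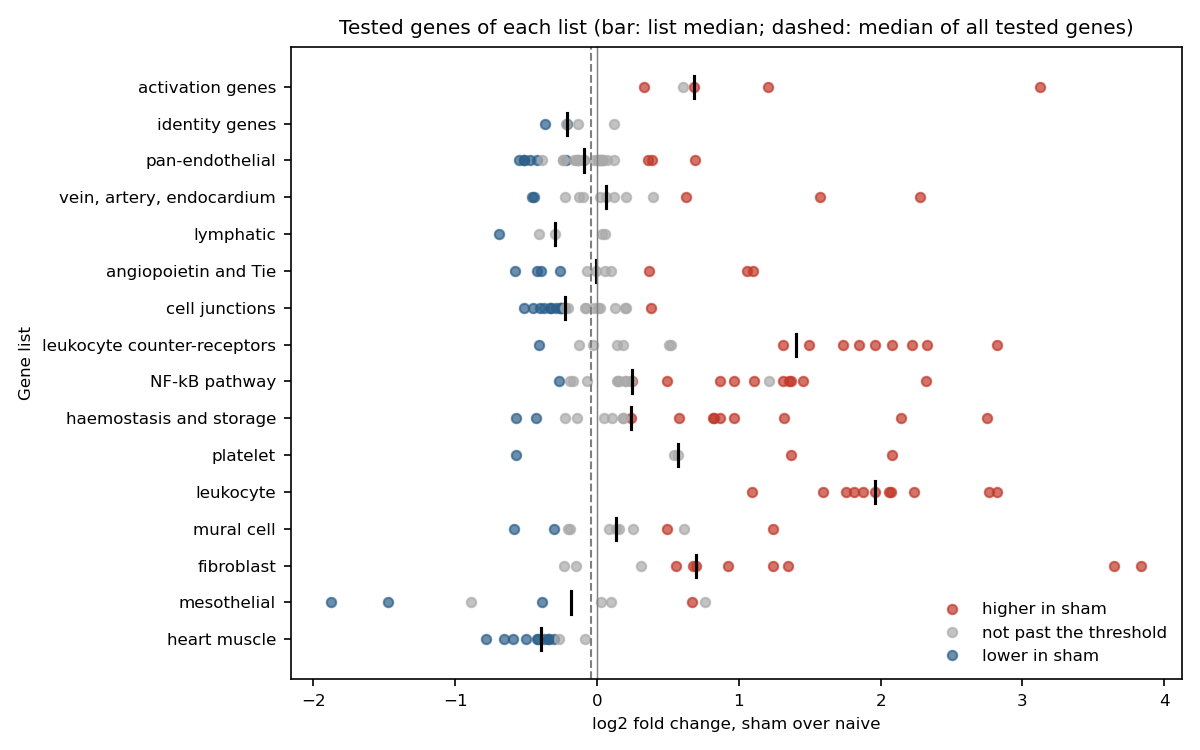
Log2 fold change, sham over naive, of every tested gene in each list; red genes were higher, blue genes lower, and grey genes did not pass, with a bar at the list median and a dashed line at the median of all tested genes, -0.05. Leukocyte markers lie wholly to the right (median 1.96), while pan-endothelial and identity genes lie around 0 (medians -0.09 and -0.21).

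**Figure D5:**
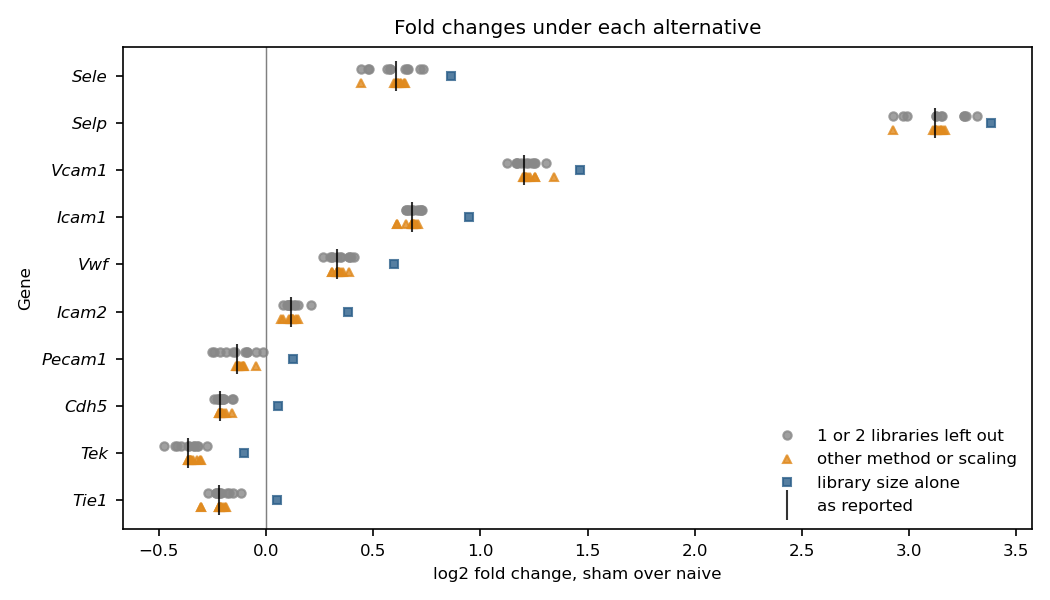
Log2 fold change of each gene, sham over naive, under each alternative processing; the bar is the value as reported, grey points leave out 1 or 2 libraries, orange points change the method or scaling, and blue squares use library size alone. Selp, Vcam1, Icam1 and Vwf stay above 0 throughout, while Pecam1, Cdh5 and Tie1 cross 0 with library size alone.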

How the data were processed

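Ventricular poly(A) RNA of 5 sham-operated and 5 naive mice was made into single-end libraries without strand information, according to the labels. Raw counts for each Ensembl gene and library were deposited. GRCm38, HTSeq and TopHat2 2.1.1 appear, with other tools, in the submitters' processing notes as far as used here, with no role or order; no source used here gives the annotation release or counting mode. The deposited table also gives GC content per gene as a percent, used only for a GC offset.

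Of 41264 rows, 574 repeated an Ensembl identifier with the same counts and were collapsed. The filterByExpr rule of edgeR 4.0.16, at its minimum count of 10 and total of 15, chose the genes, which were scaled with TMM factors and tested with the robust quasi-likelihood F test on group alone, with Benjamini-Hochberg adjustment over 13622 genes. A standard error is the absolute log2 fold change divided by the root of its F statistic. The test was checked on simulated data, with far fewer changed genes than were called in the real data. It recovered 59.1% of genes changed 1.5-fold, 78.5% of those changed 2-fold and 100% of those changed 4-fold. Of its 164 calls, 11 were false. Ratios used a prior count of 0.5 and exact permutation tests adjusted over 9 ratios. Coordinates and exon lengths are from GENCODE M21 on GRCm38. Sequences are from RefSeq. The genes, lists and tests were chosen with earlier results of these data known. Named list genes were the up to 4 of smallest p per list, plus those against the direction of most where at most 3 were; Itgal, Itga4, Tnf, Csf3r, S100a9, Itga2b, Gp1bb, Ackr1, Lyve1, Flt4, the untested platelet and lymphocyte markers and S100a8 were named after their values were seen. Some genes that the rule names are not reported here. Alternatives were DESeq2 1.42.0, limma 3.58.1 voom with sample weights, other scaling factors and filters, no robust estimation, leaving out the top 20 genes by level, a GC offset, a block for replicate number and each library left out, and, chosen after seeing the data, naive 1 and sham 4 left out together. R 4.3.3 was used. The 95% intervals come from the standard errors of the quasi-likelihood fit, which carry variation between libraries as well as counting error. The floor of 3 counts is a set value and not an estimate of error. Read counts are not counts of molecules, since PCR copies are not independent.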

Additional observations from a re-analysis of the deposited data

Results flagged for a closer look

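In 3 of 40 group checks, each over 5 libraries, a single library stood apart from the other 4 by a gap of over 0.71 of the range; chance flags about 1 in 20 such groups. Tek reached 33.3 CPM in sham 5, where the other sham libraries held 26.1 to 27.9 CPM. Icam2 reached 28.4 CPM in naive 1, where the other naive libraries held 24.7 to 25.5 CPM. Tie1 reached 277 CPM in naive 1, where the others held 241 to 250.2 CPM. Naive 1 was also the naive library with the lowest Pecam1 and Tek levels and the fewest counts of all 10.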

How the results depend on the processing

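The 4 higher activation genes stayed higher and past the threshold under all 23 alternatives, with log2 fold changes of 2.93 to 3.38 for Selp, 1.12 to 1.47 for Vcam1, 0.61 to 0.95 for Icam1 and 0.27 to 0.60 for Vwf. Sele passed under 1 alternative of 22, library size alone. The calls of identity genes moved in both directions: in place of 2 lower genes there were 3 with DESeq2, voom, the block or the block with a GC offset, 0 with RLE factors, upper quartile factors or library size alone, 1 without a filter, without robust estimation or without naive 1 and sham 4 together, and 0 to 2 with each library left out. With library size alone 1 identity gene was higher, the fold changes of Pecam1, Cdh5 and Tie1 turned to 0.128, 0.0546 and 0.0520, and the counts over all genes were 4473 higher and 283 lower, so that 94.0% of calls were higher in place of 52.6%. Voom called 3269 genes lower in place of 2113. The count of ratios to Pecam1 past the threshold was 0 to 3 with each library left out, where 4 against 5 libraries leave a coarser set of exact p-values. Over the same settings the log2 ratio differences of Cdh5 and Tie1 to Pecam1 ran from -0.21 to 0.0054 and from -0.23 to 0.0357, both reaching above 0 without naive 1. The difference between activation and identity genes ran from 1.22 to 1.35 with each library left out.

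Whether the replicate numbers pair the samples is not settled here. Same-numbered sham and naive libraries deviated together with r of 0.01 to 0.29, over 0.1 in 3 of 5 pairs. Of the 10 libraries, 6 correlated best with their own number. With the number as a block 4 activation genes were higher, and 3 identity genes lower, Tie1 having joined them (adjusted p = 0.0161). Over all genes the block gave 2592 higher and 2801 lower. Sele and Selp had the fewest reads, and depth limits what they can show.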

Other observations

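Mural cells wrap the vessels. Of 11 of their genes tested, 2 rose, 2 fell and 7 did not pass (median 0.13), but with library size alone 6 rose and 0 fell (median 0.40). Tagln, a contractile protein, rose by 1.24 and Mcam, which endothelium also makes, by 0.49. Of the exon bases of Tagln, 67.86% are shared with Pcsk7 and Gm48529 on the other strand, and the libraries carry no strand information. The pericyte channel subunits Abcc9 and Kcnj8, both also made in heart muscle, fell by 0.58 and 0.30, calls that were lost with library size alone, and that of Kcnj8 also without sham 2, 3 or 5. Of 5 tested lymphatic genes 0 rose and 1 fell, Prox1, which heart muscle also makes, at 71.8 ± 16.2 CPM in sham and 116 ± 18.8 CPM in naive ventricles (SD, n = 5), a call lost with library size alone. Lyve1 and Flt4 were at 0.03 and 0.06 on the log2 scale and did not pass.

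Of 8 tested mesothelial genes, which mark the outer lining of the heart, 1 rose, 3 fell and 4 did not pass (median -0.18, or 0.08 with library size alone, where 2 rose and 2 fell). Upk3b averaged 4.84 ± 1.88 CPM in sham and 17.7 ± 3.23 CPM in naive ventricles, Lrrn4 fell by 1.47 and Wt1, also made by endothelium, by 0.39, a call lost without any single sham library and without naive 1, 4 or 5. Clu, a secreted chaperone of many cell types, rose by 0.67; 2 genes of the list were higher without sham 2.

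Of all tested genes, those whose deviations from the group means were most like those of Vwf over the 10 libraries were Gpcpd1 (Pearson's r 0.94), Cipc (0.92) and Samd8 (0.91). Those most like Cdh5 were 4833439L19Rik (0.96), Qrich1 (0.93) and Nup98 (0.92). They are the extremes of 13622 genes over 10 libraries and are given as a description.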
